A study of Mus musculus with 830 samples.

Results

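The 155 Ngn3Cre cells and 85 HZ cells taken at the 24-somite stage were compared, 240 of the 830 mouse embryo cells in the count table. They were chosen by genotype and stage alone, from the names of the table's columns, so no measured value entered the choice. Ngn3Cre cells came from embryos labelled Ngn3-Cre; Ai6, in which Cre recombinase driven from Ngn3 sequences switches on the green Ai6 reporter for good, so that every later descendant of a recombined cell stays marked. HZ cells came from embryos labelled Ngn3-GFP/+, which carry GFP at 1 Ngn3 allele, so that GFP follows the gene while it is on and for as long as the protein lasts. Both groups had the C57BL/6XC3H background, the tissue label was endoderm, and the dissociated tissue had been stained for the surface protein EpCAM before sorting. Libraries were made cell by cell with Smart-seq3xpress, a plate method that reads whole transcripts. The labels name no embryo, litter or plate and do not say how reporter-positive cells were gated.

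Ngn3, written Neurog3 in the count table, is the basic helix-loop-helix factor that commits gut and pancreas progenitors to the endocrine fate. It is on only briefly, switches on Neurod1, and is followed by genes for hormones and for the granules that store them. The first endocrine cells of the mouse appear in the pancreatic bud at this time of development, and many of them make glucagon. A lineage mark and a knock-in mark thus need not pick the same mixture of stages. The comparison can show how the groups differed, but mark, genotype and embryo differed together and cannot be told apart.

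Summed over its cells, the Ngn3Cre group held 70763553 reads, with a median of 422230 per cell (1400 to 2525083). The HZ group held 30038923 reads, with a median of 282930 (10561 to 1132568). A gene's level is given as CPM, its counts per 1000000 of the group's summed reads, so cells with more reads weigh more. Depth went with Neurod1 in opposite directions. Ngn3Cre cells at 50 CPM or more of Neurod1 had a median of 450187 reads and those below it 263601. In HZ the medians were 233122 and 511808. Means of the cells' CPM, which weight cells equally, were taken as an alternative. Since each genotype is a single pool at this stage and cells of a pool are not replicates, values at 24 somites carry no test. Their exact 95% intervals, Poisson for reads and Clopper-Pearson for shares of cells, cover counting error only. The log2 ratio of the summed levels, with 1 CPM added to each, was taken for the 9916 genes at 10 CPM or more in either group. The test came from edgeR across 11 pools (3 Ngn3Cre, 4 HZ and 4 HM, the last labelled Ngn3-GFP/GFP), with genotype and stage as terms and 4 residual degrees of freedom. It asks whether Ngn3Cre and HZ differed on average over the stages. The stage term takes out change that the genotypes share, and the error includes any real change of the genotype difference between stages.

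Sex and a set of cells with little Epcam come before the genes. Xist is the RNA that silences an X chromosome in female cells. A cell was counted as having Xist, or Y-linked reads, where Xist or the sum of 4 Y-linked genes reached 10 CPM, and lower levels were counted as absent. By that cut 67 of 155 Ngn3Cre cells had Xist alone, 64 had Y-linked reads alone, 4 had both and 20 had neither. Of the 85 HZ cells, 75 had Y-linked reads alone, 6 had both, 4 had neither and 0 had Xist alone, which allows a share of up to 3.53% by a limit of 3 counts. Along the cell numbers of the labels, Ngn3Cre cells ran in blocks. Cells 1 to 7 were all Y-linked, cells 8 to 56 held 38 with Xist alone and 1 with Y-linked reads alone, cells 57 to 102 held 0 and 44, cells 103 to 143 held 29 and 1, and cells 144 to 155 held 0 and 11. The Ngn3Cre group thus held cells of both sexes and the HZ group showed Y-linked reads nearly throughout. Sex can be held alike by comparing only cells with Y-linked reads alone, which was done as an alternative, but genotype and embryo cannot be told apart.

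**Figure D1:**
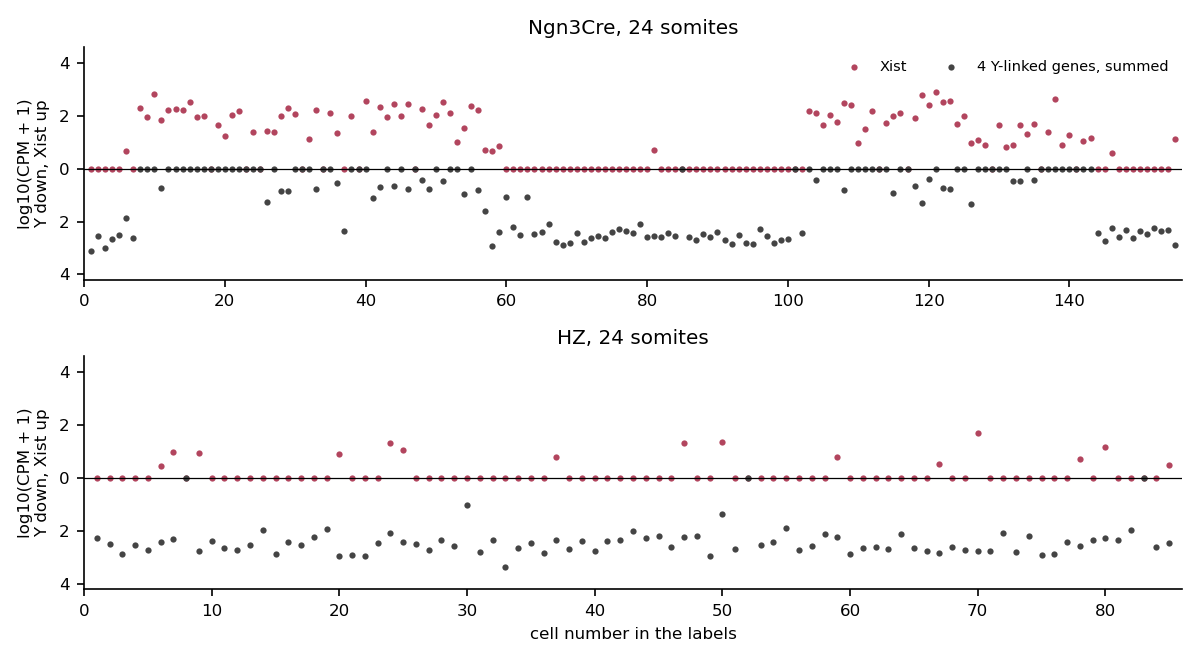
Xist (red, upward) and the summed level of 4 Y-linked genes (grey, downward) in each cell at 24 somites, as log10(CPM + 1), by the cell number in the labels; upper panel Ngn3Cre, lower panel HZ. The 155 Ngn3Cre cells fall into blocks of one or the other. Y-linked reads run along the whole HZ axis, reaching 10 CPM in all but 4 of the 85 cells.

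The other feature is Epcam itself, the gene of the epithelial surface protein for which the tissue had been stained. Epcam stood under 50 CPM in 32 of 155 Ngn3Cre cells (20.6%, 14.6 to 27.9%) and in 1 of 85 HZ cells (1.18%, 0.0298 to 6.38%). The cut was chosen after the levels were seen, and few cells lay near it: 23 Ngn3Cre cells and the 1 HZ cell were under 10 CPM, while 8 and 1 lay between 25 and 100 CPM. The other stages did not share this split, with 4 of 106 Ngn3Cre and 11 of 149 HZ cells under that level at 21 somites and 16 of 69 and 9 of 26 at 27. In Ngn3Cre, 10 of 67 cells with Xist alone and 12 of 64 with Y-linked reads alone were under it. The 32 cells were poor in other endoderm genes as well. Foxa2, a pioneer factor of endoderm, was at 50 CPM or more in 9.38% of them and 82.1% of the other 123 Ngn3Cre cells, and Cdh1 in 3.13% and 43.9%. Neuronal genes were high in their place, with the neuronal tubulin Tubb3 at 2505 against 351 CPM, the RNA binding protein Elavl4 at 728 against 93.1 CPM and Stmn2 at 645 against 5.26 CPM. Tlx2, a homeobox factor of enteric and sympathetic neurons (88.6 against 7.09 CPM), and the sensory factors Neurog1 (76.1 against 9.11 CPM) and Pou4f1 (287 against 33.9 CPM) were likewise higher. Sox10, a factor of crest and glia, had no read in them, Foxd3, another crest factor, was the lower in them (0.293 against 14.9 CPM), and Hand2, a sympathetic and enteric factor, was the higher at a low level (8.19 against 0.628 CPM). Neurod1 did not separate the sets, at 50 CPM or more in 75.0% of the cells under the Epcam level and 85.4% of the others, while Neurog3 reached that level in 6.25% and 28.5%. The 32 cells had a median of 331588 reads against 450187, and 8 of them fell under 100000 reads or 2000 genes. The shallowest had 1400 reads, and at such depth no read of Epcam, Foxa2 or Cdh1 need not mean a low level.

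Of the 9916 genes compared, 350 (3.53%) were at least 2-fold higher and 511 (5.15%) at least 2-fold lower in Ngn3Cre, and the median log2 ratio was 0.02. Leaving out cells under the Epcam level gave 3.96% and 6.27% of 9899 genes. Over the stages, edgeR called 1 gene higher (0.00543% of 18420) and 61 lower (0.331%) in Ngn3Cre at an adjusted p of 0.05. On pools without cells under the Epcam level it called 9 higher (0.0492% of 18302) and 135 lower (0.738%), and with only cells with Y-linked reads 0.151% were higher and 1.26% lower. DESeq2 called 1.4% of 21512 genes higher and 3.38% lower on the same 11 pools. The counts over stages moved with single pools. Without the Ngn3Cre pool at 21 somites edgeR called 0 and 0 genes, with 976 of 18159 at an unadjusted p under 0.05, and without the HZ pool at 21 somites it called 0 and 6. Without the HM pool at 21 somites 11 and 87 were called, and without the HM pool at 24 somites 1 and 17. Leaving out the Ngn3Cre pool at 24 somites gave 3 and 101 and the HZ pool there 4 and 69. Without the Ngn3Cre pool at 27 somites 0 and 99 were called, and without the HZ pool there 0 and 103.

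Hormone genes were the group most often higher in Ngn3Cre. Of 18 listed hormone genes 12 were compared, 8 were at least 2-fold higher and 0 lower, with a median log2 ratio of 1.58, and without cells under the Epcam level the count was 7 of 11. Glucagon had the highest level of the 8, while Sst and Ppy had larger ratios at far lower levels. Gcg (chr2:62474530-62483650, minus strand, protein coding) stood at 9791 CPM (9768 to 9814) in Ngn3Cre and at 2058 CPM (2042 to 2075) in HZ, a ratio of 4.75. Per cell, Gcg ran from 0 through a median of 445 to 88560 CPM in Ngn3Cre and from 0 through 37.0 to 30850 CPM in HZ, so the ranges overlapped throughout. The Gcg difference was larger at 21 somites, with 3187 against 161 CPM (log2 ratio 4.30), and was gone at 27 somites, with 10698 against 10233 CPM (0.06). Over the stages Gcg did not pass edgeR (log2 fold change 2.80, SE 1.04, adjusted p = 0.345).

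The promoters of 2 of these genes are shown because they carry the E-box CAGATG, a form of the site bound by Neurog3, Neurod1 and their relatives. Capitals mark that motif on either strand (CAGATG or CATCTG) in the 250 bases before the RefSeq start, read 5′ to 3′ along the gene from build GRCm38.p6, Gcg at chr2:62483654-62483903 on the minus strand and Iapp at chr6:142298175-142298424 on the plus strand.
Gcg: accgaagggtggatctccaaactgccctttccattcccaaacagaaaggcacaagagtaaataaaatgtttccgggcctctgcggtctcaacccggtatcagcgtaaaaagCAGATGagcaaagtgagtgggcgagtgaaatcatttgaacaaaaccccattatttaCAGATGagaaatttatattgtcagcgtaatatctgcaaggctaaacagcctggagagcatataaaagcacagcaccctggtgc
Iapp: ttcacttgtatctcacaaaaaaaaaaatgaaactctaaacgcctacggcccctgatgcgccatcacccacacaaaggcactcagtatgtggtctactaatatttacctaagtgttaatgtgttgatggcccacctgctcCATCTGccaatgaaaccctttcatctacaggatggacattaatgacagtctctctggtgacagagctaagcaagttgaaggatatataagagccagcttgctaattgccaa
All 8 hormone genes that were at least 2-fold higher matched a RefSeq promoter, and 4 of them (Gcg, Iapp, Ins1 and Sct) held this motif, which stood in 14.4% of 32851 mouse promoters of the same length. The homeobox core TAATTA stood in 0 of the 8 and in 4.84% of all. The hormone genes were counted once each over all their promoters, the background by single promoter, and the 8 were picked by their ratios here. The shares are thus not like for like, and no excess was tested. A match is a run of letters and shows no binding.

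Peptide YY, Pyy, was the next of the 8 by level, at 3795 CPM in Ngn3Cre and 1832 CPM in HZ, and the others lay far below. Iapp, the amylin gene, was at 126 CPM (123 to 129) in Ngn3Cre and 41.2 CPM (38.9 to 43.5) in HZ. Galanin, Gal, was at 347 against 110 CPM, secretin, Sct, at 93.6 against 30.9 CPM, and Ins1, 1 of the 2 mouse insulin genes, at 37.6 against 9.65 CPM. Pancreatic polypeptide, Ppy, stood at 22.2 against 3.03 CPM and somatostatin, Sst, at 14.8 against 0.599 CPM, both from few cells. Reads of Ins1 and Ins2, which are near copies, may have been split between them by the counting. Ghrelin was not among the higher genes: Ghrl stood at 6405 CPM (6386 to 6423) in Ngn3Cre and 5552 CPM (5526 to 5579) in HZ, a log2 ratio of 0.21, and cholecystokinin, Cck, at 199 and 201 CPM. Iapp missed the edgeR threshold over all cells (log2 fold change 2.20, SE 0.38, adjusted p = 0.0518). In pools without cells under the Epcam level 2 of the hormone genes tested were higher over the stages, Iapp (2.09, adjusted p = 0.0375) and Gal (1.80, adjusted p = 0.0447).

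Counting cells rather than reads gave the same picture for Gcg and Ghrl. A level of 50 CPM does not mark a hormone cell here, since 30 of the 32 Ngn3Cre cells under the Epcam level, which were poor in endoderm genes, had Gcg at 50 CPM or more (their median was 183 CPM), so 1000 CPM was used. At that level Gcg was present in 69 of 155 Ngn3Cre cells (44.5%, 36.5 to 52.7%) and 16 of 85 HZ cells (18.8%, 11.2 to 28.8%). The cells under the Epcam level reached it in 6 of 32 cases. Ghrl at 1000 CPM was present in 64 of 155 (41.3%, 33.5 to 49.5%) and 38 of 85 (44.7%, 33.9 to 55.9%), and Pyy in 86 of 155 (55.5%, 47.3 to 63.5%) and 42 of 85 (49.4%, 38.4 to 60.5%). At 24 somites the 2 pools paired the hormones differently, a description without a test. Cells with both Gcg and Ghrl made up 27.1% of Ngn3Cre (42 cells, 20.3 to 34.8%) and 8.24% of HZ (7 cells, 3.38 to 16.2%). Cells with Ghrl but not Gcg made up 14.2% (22 cells, 9.11 to 20.7%) and 36.5% (31 cells, 26.3 to 47.6%). At the other stages the share with Ghrl but not Gcg ran the other way, at 35.8% of Ngn3Cre and 26.2% of HZ cells at 21 somites and 20.3% and 7.69% at 27. Both hormones together were in 5.66% and 2.68% at 21 somites and 17.4% and 11.5% at 27. With cells under the Epcam level left out at 24 somites, both were in 36 of 123 Ngn3Cre and 7 of 84 HZ cells. Ghrl but not Gcg was then in 21 of 123 and 31 of 84. The pairing was not counted at equal depth, nor without the 19 Ngn3Cre and 14 HZ cells under 100000 reads or 2000 genes. In the shallowest cells (1400 reads in Ngn3Cre, 10561 in HZ) 1000 CPM is few reads. Ngn3Cre cell 95, for example, had Gcg at 15000 CPM and Ghrl at 4286 CPM with no read of Neurod1, Chga or Epcam. The share of cells with both hormones may thus include cells that hold few reads of anything else. At 24 somites cells with none of Gcg, Ghrl and Pyy were 33.5% (52 cells) and 35.3% (30 cells). All 16 HZ cells with Gcg had Pyy as well, as did 64 of the 69 Ngn3Cre cells. Without cells under the Epcam level, Gcg reached 1000 CPM in 63 of 123 Ngn3Cre and 16 of 84 HZ cells. Within Ngn3Cre, 28 of 67 cells with Xist alone and 28 of 64 with Y-linked reads alone had Gcg at that level. Summed levels of the HZ pool rested on few cells, the highest one holding 21.2% of its Gcg reads and 51.2% of its Iapp reads, against 6.81% and 25.7% in Ngn3Cre.

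**Figure D2:**
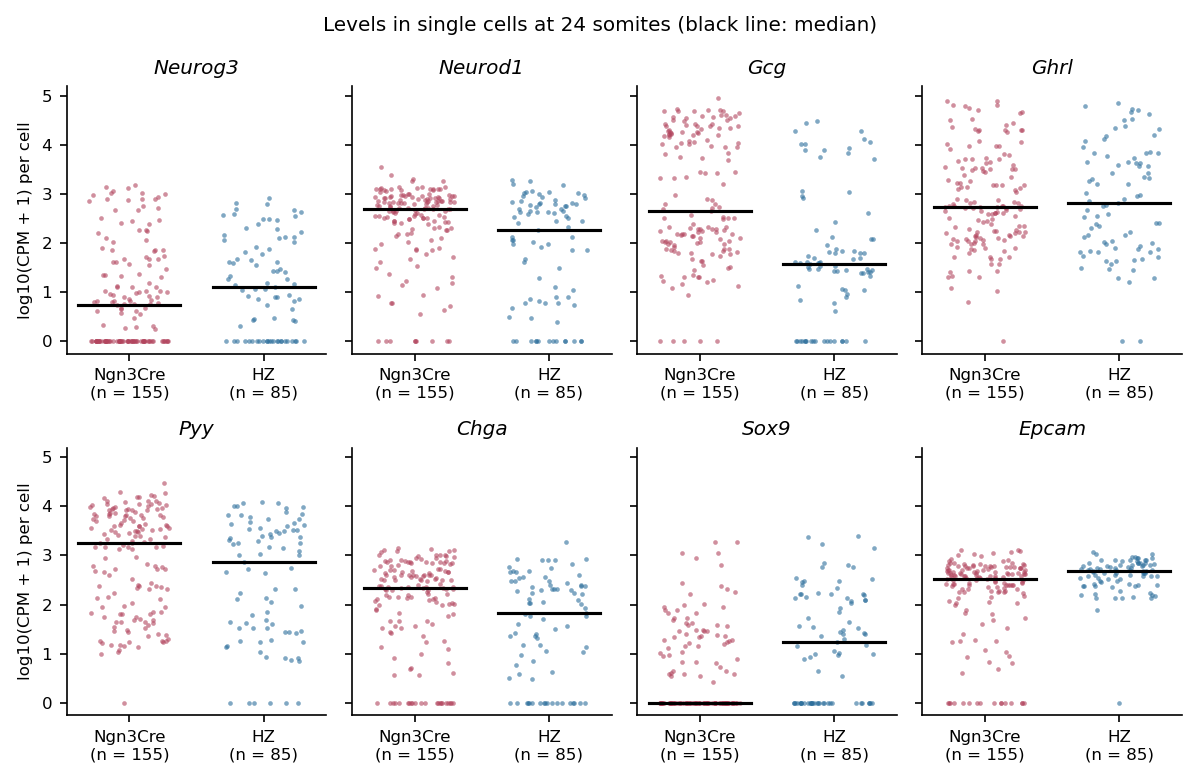
Level of 8 genes in each cell at 24 somites, as log10(CPM + 1), for 155 Ngn3Cre (red) and 85 HZ (blue) cells; the black line is the median over cells. Gcg splits into a high and a low set with more Ngn3Cre cells in the high one, Ghrl has a similar median in both, and the cells with no or little Epcam are nearly all Ngn3Cre.

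The transcription factors of the endocrine program differed little. Of 24 listed, 20 were compared, 1 was at least 2-fold higher (Etv1, an ETS factor, 104 against 39.3 CPM) and 1 lower (Sox4, 4.80 against 19.4 CPM), with a median log2 ratio of 0.42. Neurog3 (chr10:62133090-62134763, plus strand, protein coding) was at 153 CPM (150 to 156) in Ngn3Cre and 90.0 CPM (86.6 to 93.4) in HZ. HZ embryos carry GFP at 1 allele of this very gene, and the part of that allele in the Neurog3 levels cannot be told apart. Neurog3 was at 10 CPM or more in 35.5% of Ngn3Cre and 54.1% of HZ cells, and at 50 CPM in 37 of 155 and 26 of 85. At 500 CPM it was in 16 of 155 (10.3%, 6.02 to 16.2%) and 3 of 85 (3.53%, 0.734 to 9.97%), the other way round but with intervals that overlap. The Ngn3Cre cells at 500 CPM were 12 of 67 with Xist alone (17.9%, 9.61 to 29.2%) and 4 of 64 with Y-linked reads alone (6.25%, 1.73 to 15.2%). These intervals overlap, and the part of sex or embryo in this count was not tested. Neurod1 was at 564 and 292 CPM in the pools and at 50 CPM or more in 129 of 155 (83.2%, 76.4 to 88.7%) and 53 of 85 cells (62.4%, 51.2 to 72.6%), with 12 and 8 cells between 25 and 100 CPM. Pax6 (548 and 292 CPM), needed for glucagon cells, and Isl1 (1228 and 776 CPM), a LIM factor of endocrine cells and neurons, ran the same way. Pax4 (69.5 and 48.1 CPM), which favours the beta fate, and Fev (59.3 and 66.4 CPM), a factor of endocrine precursors, lay closer together. Without cells under the Epcam level 3 of 20 were at least 2-fold higher and 2 lower. None of the 23 factors tested passed edgeR, with or without cells under the Epcam level.

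Genes of the secretory granule leaned the same way as the hormones. Of 24 listed, 22 were compared, 21 had a positive log2 ratio and 6 were at least 2-fold higher, with a median of 0.82. Pcsk2, the convertase that cuts proglucagon to glucagon, was at 504 against 188 CPM. Ptprn, a granule membrane protein, was at 97.8 against 38.6 CPM, Scg3, a granin that sorts cargo, at 125 against 54.5 CPM, and Cpe, carboxypeptidase E, at 363 against 174 CPM. Chga, chromogranin A, fell short of 2-fold at 346 against 190 CPM. Without cells under the Epcam level 11 of 22 were at least 2-fold higher. None of the 24 passed edgeR in either fit, and Cpe had an adjusted p of 0.0672 without those cells. Of 14 alpha cell genes, 11 were compared and 3 were at least 2-fold higher: Gcg, Gpr119, a lipid-sensing receptor (149 against 73.3 CPM), and Tmem27, a cleaved membrane protein of islet cells (592 against 187 CPM). The count was 6 of 11 without cells under the Epcam level. Of 22 ion channel genes, 12 were compared and 5 were at least 2-fold higher, with a median of 0.63, among them Abcc8, the sulfonylurea receptor (249 against 119 CPM), and Cacna1c, an L-type calcium channel (104 against 41.9 CPM), and 0 of 21 passed edgeR. Aplp1, an amyloid precursor relative found in neurons and endocrine cells, was the single gene called higher over the stages in all cells. Its levels were 228 and 93.9 CPM at 21 somites, 255 and 142 CPM at 24, and 238 and 100.3 CPM at 27 (log2 fold change 1.19, SE 0.19, adjusted p = 0.0417). Aplp1 passed in 5 of the 11 fits that left out a pool.

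Among cells with Neurod1 these differences were smaller, and among cells below it they ran the same way as in all cells. In the 129 Ngn3Cre and 53 HZ cells at 50 CPM or more of Neurod1, 4.25% of 9642 genes were at least 2-fold higher and 2.49% lower. Of 13 hormone genes compared there, 4 were higher and 2 lower, with a median of 0.77, and of 22 granule genes 0 were higher and 1 was lower, with a median of 0.20. Gcg was at 10825 against 4117 CPM in these cells (log2 ratio 1.39), and at 1000 CPM in 60 of 129 (46.5%, 37.7 to 55.5%) and 16 of 53 (30.2%, 18.3 to 44.3%), intervals that overlap. Chga was at 372 and 353 CPM, Isl1 had a log2 ratio of -0.02 and Pax6 one of 0.11. In the 26 Ngn3Cre and 32 HZ cells below the Neurod1 level, 9.14% of 10048 genes were at least 2-fold higher and 11.3% lower. There 14 of 22 granule genes were higher, with a median of 1.30, as were 6 of 9 hormone genes (median 1.19) and 8 of 11 alpha cell genes (median 1.07). An edgeR fit over the stages on cells with Neurod1, in 8 pools, called 0 genes, with 688 of 16892 at an unadjusted p under 0.05.

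**Figure D3:**
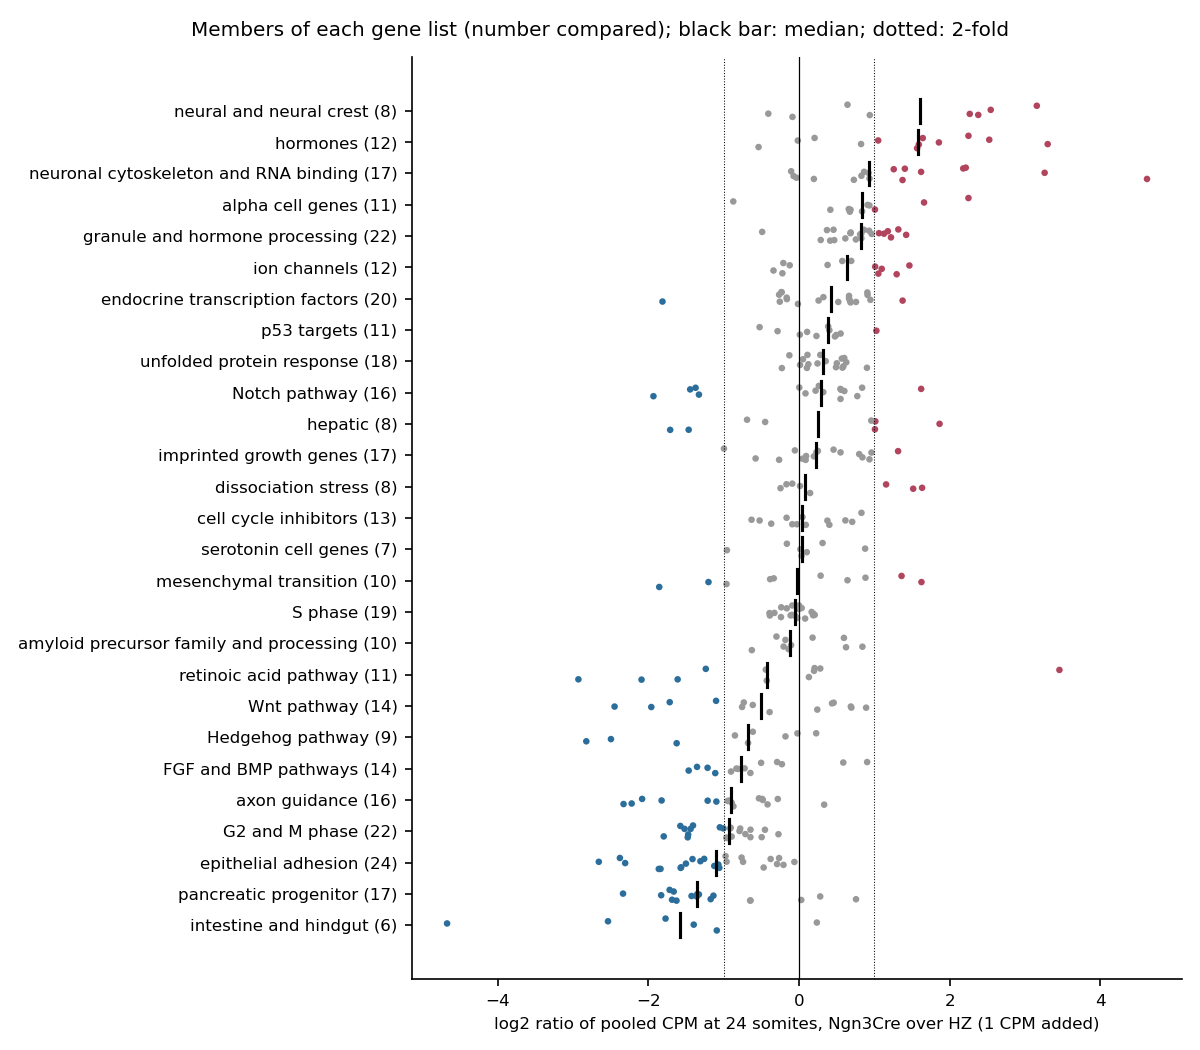
Log2 ratio of summed CPM at 24 somites, Ngn3Cre over HZ with 1 CPM added, for each compared member of the gene lists with 5 or more (number in brackets); red and blue points are at least 2-fold higher and lower, the black bar is the list's median and the dotted lines mark 2-fold. Hormones and neural markers lie at the top, and intestine, pancreatic progenitor and epithelial adhesion genes at the bottom.

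Neuronal genes were also higher in the pool, and there the count turned on the cells under the Epcam level. Of 19 listed genes of the neuronal cytoskeleton and of neuronal RNA binding, 17 were compared and 8 were at least 2-fold higher, with a median of 0.93. Without those cells it was 2 of 14, with a median of 0.30. The growth-cone gene Gap43 stood at 49.0 CPM (47.4 to 50.6) in Ngn3Cre and 1.03 CPM (0.701 to 1.46) in HZ, Stmn2, a tubulin regulator of growing axons, at 97.9 and 9.32 CPM, and Elavl4 at 185 and 39.1 CPM. Without cells under the Epcam level their log2 ratios went from 4.62 to 2.36, from 3.26 to -0.73 and from 2.21 to 1.28. Of 15 neural and neural crest markers 8 were compared and 4 were at least 2-fold higher, and without those cells 2 of 5 were. Summed per cell, these markers ran from 0 through a median of 350 to 2715 CPM in Ngn3Cre and from 0 through 216 to 1879 CPM in HZ. Ret (68.4 and 91.0 CPM) and Th (204 and 217 CPM) were not part of the difference, and Th, tyrosine hydroxylase, was at 50 CPM or more in 63.4% of the Ngn3Cre cells at the Epcam level and 6.25% of those under it. None of the 19 and 15 genes of these lists passed edgeR over the stages in all cells. At 21 somites Stmn2 and Gap43 were the higher in HZ, at 5.74 against 25.4 CPM and 11.5 against 31.0 CPM.

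The largest ratios upward, among genes at 50 CPM or more in the higher pool and at 10 CPM in at least 20% of its cells, included those of Xist, Crabp1, Stmn2, Rgs4, Ebf1, Cartpt, Diaph3, Pou4f1, Gcg, Elavl4 and Ank2. Crabp1, a retinoic acid binding protein, was at 713 CPM in Ngn3Cre and 64.0 CPM in HZ and at 4061 CPM in the Ngn3Cre cells under the Epcam level, and its log2 ratio went from 3.46 to 1.16 without them. Cartpt, a neuropeptide precursor (61.7 and 9.29 CPM), Diaph3, a formin that builds actin filaments (84.9 and 16.7 CPM), and Ank2, an ankyrin that anchors membrane proteins (87.3 and 19.9 CPM), had ratios at least as large without those cells, at 2.71, 2.44 and 2.16. The ratios of Ank2 at 21 and 27 somites were 0.76 and 1.62, and its adjusted p was 0.0733 in all cells.

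**Figure D4:**
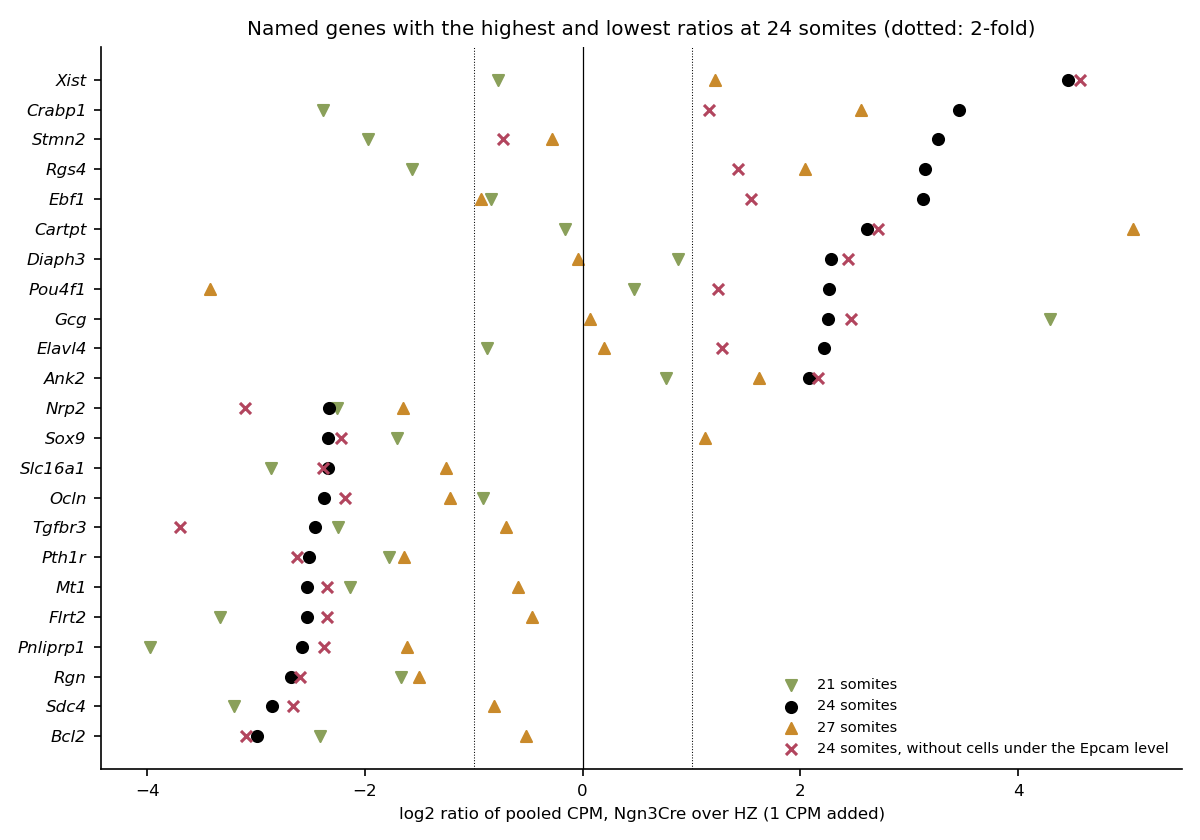
Log2 ratio of summed CPM, Ngn3Cre over HZ, for the genes named for the highest and lowest ratios at 24 somites (black circles), with their ratios at 21 somites (green) and 27 somites (orange) and at 24 somites without cells under the Epcam level (red crosses); dotted lines mark 2-fold. The genes at the top scatter to both sides at the other stages, and those at the bottom stay on the left at 21 and 27 somites except Sox9 at 27.

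Progenitor and epithelial genes were lower in Ngn3Cre. Of 22 listed pancreatic progenitor genes 17 were compared, 12 were at least 2-fold lower and 0 higher, with a median log2 ratio of -1.35. Sox9 (chr11:112782224-112787760, plus strand, protein coding), which keeps progenitors in that state, was at 50.0 CPM (48.4 to 51.7) in Ngn3Cre and 257 CPM (251 to 263) in HZ, 5.06 times higher in HZ. Per cell Sox9 ran from 0 through a median of 0 to 1878 CPM in Ngn3Cre and from 0 through 16.2 to 2432 CPM in HZ. Pdx1, the founding factor of the pancreas and duodenum, was at 10.6 CPM (9.83 to 11.4) against 36.3 CPM (34.1 to 38.5), and was present at 50 CPM or more in 10 of 155 and 13 of 85 cells. Foxa1 (33.1 and 104 CPM) and Foxa3 (26.3 and 85.4 CPM), pioneer factors of endoderm, were lower, while Foxa2 was at 200 and 165 CPM. Prox1, a homeobox factor of liver and pancreas, was level at 228 and 224 CPM, and Nkx6-1, which endocrine and progenitor cells share, was at 13.3 and 7.49 CPM. The medians of this list at 21 and 27 somites were -0.91 and 0.47, so the difference did not hold across the stages, and 0 of 22 genes passed edgeR (Sox9 log2 fold change -1.11, SE 0.57, adjusted p = 0.551).

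Genes that hold epithelial sheets together behaved alike at this stage. Of 26 listed, 24 were compared, all 24 had a negative log2 ratio and 14 were at least 2-fold lower, with a median of -1.10. Ocln, a tight junction protein, was at 14.7 against 80.5 CPM, Grhl2, a factor that maintains epithelia, at 4.61 against 34.4 CPM, Cdh1, E-cadherin, at 40.2 against 116 CPM, Dsp, desmoplakin, at 31.6 against 118 CPM, and Krt19 at 59.0 against 214 CPM. Epcam was at 366 and 507 CPM, Krt8 at 512 and 870 CPM, and Cldn4 at 295 and 308 CPM. Without cells under the Epcam level, a cut that uses a member of this list, 11 of 24 were at least 2-fold lower, with a median of -0.94. Ocln (adjusted p = 0.021), Cldn3, a claudin (adjusted p = 0.0108), and Krt18, a keratin (adjusted p = 0.0447), then passed edgeR, 3 of 26 tested against 0 with all cells. At 21 and 27 somites the list's medians were -0.60 and 0.26.

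Genes of other gut regions were among the lower calls over the stages. Of 16 intestine and hindgut genes 6 were compared, 5 were at least 2-fold lower and 3 of 16 passed edgeR as lower. Cdx2, the caudal factor of the intestine, was at 6.68 CPM (6.10 to 7.32) in Ngn3Cre and 43.6 CPM (41.3 to 46.0) in HZ, at 3.66 and 45.8 CPM at 21 somites and at 0.263 and 9.30 CPM at 27 (log2 fold change -3.94, SE 0.49, adjusted p = 0.0222). Lgals2, a galectin of gut epithelium, had 12 Ngn3Cre reads at 24 somites, 0.170 CPM (0.0876 to 0.296), against 28.9 CPM (27.0 to 30.8) in HZ, and its edgeR log2 fold change was -6.36 (SE 0.75, adjusted p = 0.0185). Tspan8, a tetraspanin of gut epithelium, was at 7.69 and 28.7 CPM (-2.84, SE 0.47, adjusted p = 0.0452). Of 15 anterior foregut and stomach genes only 2 were compared, and 2 of 14 passed edgeR, Sycn, a granule protein of the exocrine pancreas, and Prdm1, a repressor of transcription. Prdm1 was at 2.20 against 20.6 CPM (-2.92, SE 0.46, adjusted p = 0.0362). In the cells these genes were sparse, with Cdx2 at 50 CPM or more in 3.87% of Ngn3Cre and 20.0% of HZ cells.

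Signalling genes that differed by 2-fold were more often lower than higher. Of 14 Hedgehog genes 9 were compared and 3 were at least 2-fold lower. Shh, the ligand that gut epithelium makes and pancreatic buds lack, was at 2.25 CPM (1.91 to 2.63) against 17.3 CPM (15.9 to 18.9), and it passed edgeR (log2 fold change -3.33, SE 0.30, adjusted p = 0.00766). Ihh, the second gut ligand, was at 1.77 against 18.6 CPM, and 1 Ngn3Cre cell held 70.4% of its reads. Of 16 Notch genes compared, 4 were at least 2-fold lower and 1 higher: the receptors Notch2 (52.7 and 204 CPM) and Notch3 (13.9 and 39.6 CPM), the ligand Dll1 (11.5 and 31.5 CPM) and the target Hes1 (20.1 and 52.0 CPM) were lower, and the feedback gene Nrarp was at 13.8 and 3.79 CPM. The Notch list as a whole leaned the other way, with 12 of 16 ratios positive and a median of 0.29, which was -0.03 without cells under the Epcam level. Among 14 Wnt genes compared 4 were lower, the receptors Fzd5 (5.03 and 32.0 CPM), Fzd7 (21.4 and 72.8 CPM) and Fzd2 (25.7 and 56.3 CPM) and the secreted antagonist Sfrp5 (61.7 and 243 CPM), and Fzd2 passed edgeR (-1.44, SE 0.21, adjusted p = 0.026). Of 16 axon guidance genes compared 6 were lower, and 3 of 30 passed edgeR: Robo1, a Slit receptor (25.3 and 110.6 CPM), Nrp2, a semaphorin co-receptor (17.9 and 94.1 CPM), and Efnb2, an ephrin (24.1 and 88.0 CPM), with adjusted p of 0.0231, 0.0277 and 0.00918. Of 11 retinoic acid genes compared 4 were lower, among them Dhrs3, which turns retinal back to retinol (14.3 and 64.1 CPM), and 1, Crabp1, was higher. In pools without cells under the Epcam level edgeR called as lower 2 of 13 Hedgehog, 1 of 21 Notch, 2 of 25 Wnt and 5 of 30 axon guidance genes. Mmp14, a membrane metalloprotease, was lower at each stage (11.6 and 44.5 CPM at 24, log2 fold change -1.99, SE 0.23, adjusted p = 0.0185). Of the 11 fits that left out a pool, Shh and Lgals2 passed in 10, Cdx2, Efnb2 and Mmp14 in 9, Robo1 in 8, Nrp2 in 7, Prdm1 in 6, Fzd2 in 5 and Tspan8 in 3.

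The 12 largest ratios downward by the same rule belonged to Bcl2, Sdc4, Rgn, Pnliprp1, Flrt2, Mt1, Pth1r, Tgfbr3, Ocln, Slc16a1, Sox9 and Nrp2. Bcl2, which blocks apoptosis, was at 7.46 against 66.3 CPM, and Sdc4, a heparan sulfate receptor, at 51.3 against 375 CPM. Rgn, a calcium binding protein, was at 7.97 against 56.5 CPM and passed edgeR (adjusted p = 0.025), as did Pth1r, the parathyroid hormone receptor (8.99 against 55.9 CPM, adjusted p = 0.027), and Nrp2. Mt1, a metallothionein, was at 39.0 against 231 CPM and differed as much among cells with Neurod1 (log2 ratio -2.62).

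Among cells with Neurod1 the lower genes parted. Log2 ratios there were -0.53 for Sox9, -0.04 for Cdx2, -0.53 for Sdc4 and 0.11 for Nrp2, and Efnb2 (1.05), Rgn (1.23) and Shh (0.68) were on the other side. Lgals2 (-1.73), Mmp14 (-1.19) and Robo1 (-0.98) kept lower levels in Ngn3Cre there. The pools also differed in the cells that Neurod1 left out. Epcam was at 50 CPM or more with Neurod1 under it in 18 of 155 Ngn3Cre cells (11.6%, 7.03 to 17.7%) and in 32 of 85 HZ cells (37.6%, 27.4 to 48.8%). Of these, 11 Ngn3Cre and 9 HZ cells held Gcg, Ghrl or Pyy at 1000 CPM or more, so they were not all outside the endocrine set. Sox9 was at 50 CPM or more with Neurod1 under it in 9 of 155 (5.81%, 2.69 to 10.7%) and 24 of 85 (28.2%, 19.0 to 39.0%). This last share of cells was 2 of 106 against 38 of 149 at 21 somites and 3 of 69 against 3 of 26 at 27. Among cells under the Neurod1 level, Cdx2 and Shh still had log2 ratios of -1.34 and -2.16 and Lgals2 one of -5.27.

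Genes of the G2 and M phases, when a cell readies itself for and goes through division, gave opposite answers by the cells counted. In the summed reads of all cells, 22 of 22 had negative log2 ratios and 9 were at least 2-fold lower in Ngn3Cre, with a median of -0.94. Kif23, a kinesin of the dividing spindle, was at 18.8 against 67.7 CPM, Plk1, a mitotic kinase, at 18.4 against 57.0 CPM, and Top2a, which untangles chromosomes, at 123 against 242 CPM. When cells were weighted equally the median was -0.06 with 9 of 22 positive. The share of cells whose G2 and M genes summed to 1000 CPM or more was level, at 35 of 155 (22.6%, 16.3 to 30.0%) and 19 of 85 (22.4%, 14.0 to 32.7%). The 32 Ngn3Cre cells under the Epcam level were among those with high levels, with Top2a at 50 CPM or more in 56.3% of them and in 23.6% of other Ngn3Cre cells. Without them the shares were 18 of 123 (14.6%, 8.91 to 22.1%) and 18 of 84 (21.4%, 13.2 to 31.7%) and the median was -1.20, with 16 of 22 at least 2-fold lower.

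Among cells with Neurod1 the sign was the opposite. All 22 genes had positive ratios, 19 of 22 were at least 2-fold higher in Ngn3Cre and the median was 1.33, with 22 of 129 (17.1%, 11.0 to 24.7%) and 5 of 53 cells (9.43%, 3.13 to 20.7%) at 1000 CPM or more. Top2a stood at 115 against 43.8 CPM there and Mki67, the proliferation marker, had a log2 ratio of 1.78. The median was 1.57 when the cell of each genotype with most reads of these genes was left out. It was 1.24 without cells under the Epcam level, when 15 of 22 genes were at least 2-fold higher (3.99% of all 9589 genes compared were higher and 2.69% lower). Of those cells 11 of 105 and 4 of 52 reached 1000 CPM. At 21 and 27 somites the same genes in cells with Neurod1 had medians of -1.75 and -2.71, with 0 of 22 positive at either stage. With cells weighted equally these medians were -0.67 and -2.99. Without cells under the Epcam level they were -1.84 and -1.40. The cells at 1000 CPM or more were then 6 of 95 and 7 of 71 at 21 somites, and 4 of 43 and 3 of 15 at 27. Over the stages in all cells, 7 of 22 passed edgeR as lower in Ngn3Cre (Top2a, Aurkb, Bub1b, Cenpe, Nusap1, Plk1 and Aspm), and 10 did without cells under the Epcam level. In the fits that left out a pool these 7 passed between 3 (Top2a) and 9 times (Aurkb) of 11. In all cells at 24 somites S phase genes did not differ by 2-fold in either direction, 0 of 19 compared, with a median of -0.05. Among cells with Neurod1 4 of 19 were at least 2-fold higher (4.25% of all 9642 genes compared) and 0 lower, with a median of 0.55. At 21 and 27 somites the medians were -1.11 and -0.98 in all cells. In cells with Neurod1, over all 20 listed genes, they were -0.77 and -1.04.

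**Figure D5:**
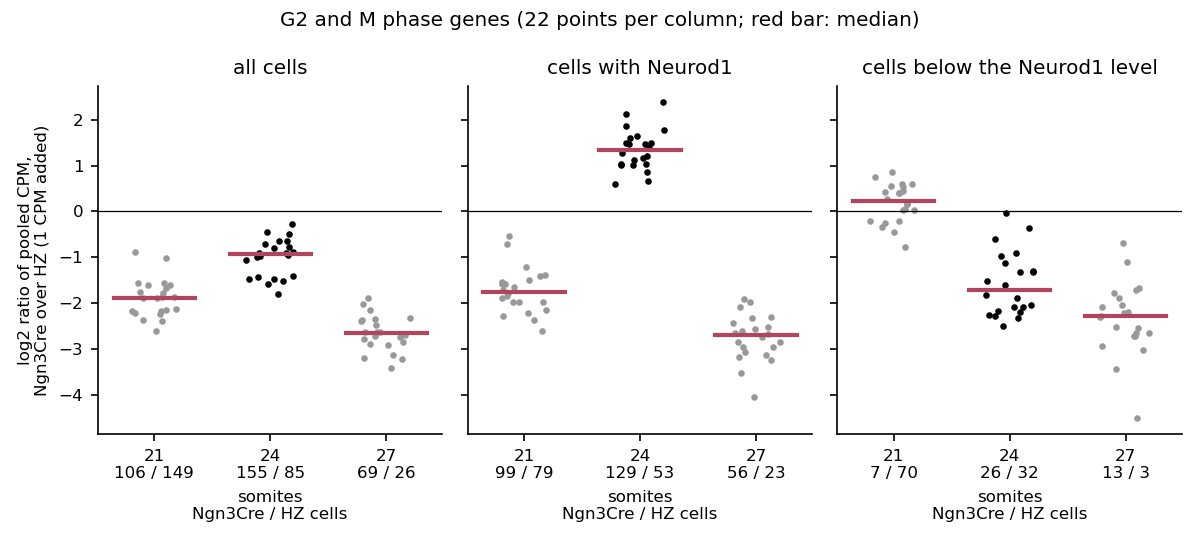
Log2 ratio of summed CPM, Ngn3Cre over HZ, of 22 G2 and M phase genes at 21, 24 (black) and 27 somites, in all cells, in cells at 50 CPM or more of Neurod1 and in cells below it; red bars are medians, and the numbers under each stage are Ngn3Cre and HZ cells. In cells with Neurod1 the points lie above 0 at 24 somites and below it at 21 and 27.

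Markers of blood and endothelium were sparse, and those of other tissues less so. Of 13 blood markers 0 reached 10 CPM in either pool, and of 10 endothelial markers 1 did, with a log2 ratio of 0.44. Of 12 mesenchymal markers 5 were compared and 3 were at least 2-fold higher, among them Lum, a matrix proteoglycan (54.1 and 8.16 CPM), and Col1a1, collagen I (82.3 and 39.6 CPM), for which 1 Ngn3Cre cell held 82.0% of the reads. Summed per cell the mesenchymal markers ran from 0 through a median of 29.8 to 13651 CPM in Ngn3Cre and from 0 through 20.0 to 8030 CPM in HZ. With cells under the Epcam level left out, 2 of 5 were higher and 1 lower. Of 7 notochord markers 3 were compared and 2 were at least 2-fold lower, Shh and Sox9, which gut epithelium and pancreatic progenitors share. Their sum was 84.1 CPM in Ngn3Cre and 319 CPM in HZ, and ran per cell from 0 through a median of 14.3 to 2241 CPM and from 0 through 32.4 to 2484 CPM. The defining notochord genes T (1.31 and 1.10 CPM) and Noto (0.0283 and 0.200 CPM) were near 0 in both. Of 9 yolk sac and visceral endoderm markers 5 were compared, 0 were at least 2-fold higher and 1, Afp, lower (27.5 and 92.2 CPM), and their sum was 2213 and 1885 CPM, most of it Ttr (1341 and 1005 CPM), which alpha cells also make. Of 18 genes of the stress of tissue dissociation 8 were compared and 3, Fos, Egr1 and Junb, were at least 2-fold higher at 30.0, 26.5 and 26.4 CPM in Ngn3Cre, with 0 lower and a median of 0.08. The part of these cells and of dissociation in the differences above was not tested.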

How the data were processed

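The members and gene lists were chosen with earlier results of these data known. The authors deposited a table of read counts per gene and cell and a table of TPM (reads divided by gene length and rescaled to a fixed sum per cell), whose making is not described further in the labels. TPM entered only as an alternative. The submitters' processing notes name FastQC 0.11.9, Trimmomatic 0.39, HISAT2 2.1.0 and GRCm38/mm10. Neither the read counter nor any use of molecular identifiers is stated there. No cell was removed from the main comparison. Counts were summed per genotype and stage, and a log2 ratio was taken with 1 CPM added for genes at 10 CPM or more in either pool. Pools of at least 10 cells were tested in edgeR 4.0.16 (R 4.3.3; TMM scaling, filterByExpr, quasi-likelihood F-test, Benjamini-Hochberg adjustment). DESeq2 1.42.0 was an alternative. Nothing says that pools come from separate embryos, so p-values rest on the spread of these pools left after the genotype and stage terms. On simulated counts with 100 genes changed 4-fold and 100 changed 16-fold among 17680, 42 and 66 were recovered, with 13 false calls. The simulated pools had no stage effect and the same fold at every stage, so these counts need not hold for the real pools. Named genes were the 12 largest ratios each way (at least 50 CPM in the higher pool and 10 CPM in 20% of its cells, without predicted genes), a set of landmark genes and per list up to 4 members of the largest ratios at 20 CPM or more, and others named were chosen after their values were seen. Some genes are not reported here and were left out of the lists. No cell's column duplicated another. Positions are from GENCODE vM21 (GRCm38) and promoters from RefSeq.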

Additional observations from a re-analysis of the deposited data

Results flagged for a closer look

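The log2 ratio of Col1a1 was 1.04 at 24 somites and negative at 21 (-2.04) and 27 somites (-1.09). At 24 somites 1 Ngn3Cre cell held 82.0% of its reads. The difference between the stages was not tested.

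The G2 and M phase genes in cells with Neurod1 had a median log2 ratio of 1.33 at 24 somites, with 22 of 22 positive, and medians of -1.75 and -2.71 at 21 and 27 somites, with 0 of 22 positive. The ratio came from 22 of 129 Ngn3Cre and 5 of 53 HZ cells at 1000 CPM or more of these genes at 24 somites, 9 of 99 and 11 of 79 at 21, and 5 of 56 and 10 of 23 at 27. Without cells under the Epcam level the medians were 1.24 at 24 somites, -1.84 at 21 and -1.40 at 27. The difference between the stages was not tested.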

How the results depend on the processing

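The 350 genes higher and 511 lower at 24 somites became 205 higher with 5 CPM added, 915 and 1030 without a filter on low values, 724 and 966 without cells with 2 neural markers, and 295 lower from the mean of the cells' TPM. The 410 and 240 genes among cells with Neurod1 became 659 and 789 without cells with 2 neural markers, a filter that also removed endocrine cells, since Ret and Th are in its list. The 6 granule genes at least 2-fold higher were 3 from the mean of the cells' CPM, 3 from that of their TPM, 3 with only Ngn3Cre cells with Xist, 18 without cells with 2 neural markers and 11 without cells under the Epcam level. The 8 neuronal cytoskeleton genes were 5 without cells with 2 neural markers and 2 without cells under the Epcam level. The 4 neural markers were 7 with no filter on low values, 1 and 2 without those cells, and 2 with only Ngn3Cre cells with Xist. The 14 epithelial genes lower were 9 from the mean of the cells' TPM. The 9 G2 and M genes lower were 0 from the mean of the cells' CPM or TPM, 4 with cells thinned to 100000 reads, 18 and 16 without cells with neural markers or under the Epcam level, and 17 with only cells with Y-linked reads. The 8 hormone genes and 12 pancreatic progenitor genes stayed within 1.5 times under each alternative. Neurod1 was in 83.2% of Ngn3Cre cells at 50 CPM and 89.7% at 10 CPM.

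Over the stages, the 1 gene higher and 61 lower became 2 higher with RLE size factors, 6 and 99 without a filter on low counts, 302 and 728 in DESeq2, 17 and 34 with only the 6 pools of shared stages, 3 higher without cells of low depth, 0 and 0 with only cells with Neurod1, 172 and 452 without cells with 2 neural markers, 9 and 135 without cells under the Epcam level, and 27 and 225 with only cells with Y-linked reads. Leaving out each pool in turn gave 0 to 11 higher and 0 to 103 lower. Reversed values were Xist at 24 somites with only cells with Y-linked reads (-0.066), Stmn2 without cells with 2 neural markers (-1.53) or under the Epcam level (-0.73), and, over stages in cells with Neurod1, Prdm1 (0.72), Rgn (0.52) and Tspan8 (0.29). The causes were not tested, beyond the fewer cells or pools. No paired analysis was possible because the numbers in the labels count cells and the pools carry none. With 1 pool per genotype and stage, a difference between embryos cannot be told apart from one between genotypes at 24 somites.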
